A study of Homo sapiens with 18 samples.

Results

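LNCaP cells that had received genistein at 20 µM for 24 h were compared with untreated LNCaP cells, gene by gene, by poly(A) RNA sequencing. The comparison holds 6 libraries of the 18 in the series, 3 in each group, chosen by the cell line, drug, dose and replicate number in the names of the count columns. The other groups were LNCaP with genistein at 10 µM, LNCaP with baicalein at 10 or 20 µM, and untreated PC-3 cells, a second prostate cancer line. The labels of the control libraries say untreated, whereas the protocol text says that controls received DMSO, the vehicle. All cells are labelled wild type and grew in RPMI-1640 with fetal bovine serum, which supplies steroids, growth factors and lipoproteins. The title of the series presents genistein and baicalein as radiosensitizers to be given with a PSMA-directed radioligand. The labels do not say that the 3 libraries of a group came from separate cultures, so the p-values below measure only the spread between libraries.

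Genistein is an isoflavone of soy. It is known as an inhibitor of tyrosine kinases and DNA topoisomerase II in cells and as a weak ligand of oestrogen receptors. LNCaP is an established prostate adenocarcinoma line that was derived from a metastasis in a lymph node. It responds to androgens and expresses a luminal program that includes KLK3, which encodes prostate-specific antigen, and FOLH1, which encodes PSMA. Cells make cholesterol from acetyl-CoA through mevalonate. When sterols in the endoplasmic reticulum run low, the membrane-bound factor SREBP-2 is escorted by SCAP to the Golgi, cut there and sent to the nucleus, where it raises the genes of the whole pathway. INSIG proteins hold SCAP back when sterols are plentiful, and SREBP-1 acts more on fatty acid synthesis.

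The 6 libraries held between 11249593 and 18445711 counts. The first principal component, 43.9% of the variance of the 6 libraries, separated the treated from the untreated libraries. On the second, 20.8%, replicate 1 of each group stood apart from replicates 2 and 3 of that group, but in opposite directions. Untreated replicate 1 lay at 23.2 and treated replicate 1 at -43.8. Of 8544 genes at 20 CPM or more, 322 differed 3-fold or more between libraries of 1 group, HMGCS1 and TFRC among them. Mitochondrially encoded genes took 4.65, 5.36 and 5.25% of the counts in the untreated libraries and 6.26, 5.58 and 5.03% in the treated ones. These shares overlapped, and the difference of 0.54 percentage points had p = 0.4 in an exact two-sided permutation test over the 6 libraries, which cannot go below 0.1. Of 10 luminal epithelial markers all were measured, with KRT8 and KRT18 at 142 CPM or more in every untreated library. Only 2 of 7 basal, 2 of 12 neuroendocrine, 4 of 10 stromal and 2 of 8 blood cell markers had enough counts to be tested, and KRT5, TP63, CHGA, PTPRC and COL1A2 were not among them. The tested stromal markers summed to between 23.9 and 24.9 CPM in untreated and 20.0 CPM in each treated library. Among 10 markers of PC-3 cells 3 were tested, and 2 of those rose at low levels. Their summed level was 7.58 to 8.33 CPM in untreated and 18.1 to 21.3 CPM in treated libraries, and its part in the results below was not tested. VIM, an intermediate filament of mesenchymal cells, went from 6.17 ± 0.389 CPM to 14.1 ± 1.38 CPM (mean ± SD, n = 3), and LCN2, an iron-carrier protein, from 1.31 ± 0.133 CPM to 4.98 ± 0.247 CPM. In such bulk samples fewer cells of a type and less RNA per cell cannot be told apart. CPM are counts per 1000000 scaled by TMM factors, and levels of different genes are not compared because they are not per length.

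After genistein at 20 µM, 1412 genes were higher and 1379 were lower of 16985 tested, at an adjusted p under 0.05 in edgeR's quasi-likelihood test. That is 16.4% of the genes tested, 8.31% higher and 8.12% lower. Every list count against untreated cells below is to be read beside these shares. The median log2 fold change of all genes was 0.05. Most changes were small: the median fold of the called genes was 1.59 among those higher and 1.71 among those lower, and a change of more than 2-fold was reached by 398 and 454 of them. The split of calls moved with the scaling: with upper-quartile factors 875 genes were higher and 1356 lower, and with mitochondrially encoded genes left out before scaling 1076 were higher and 1685 lower. Any single library left out brought the total to between 1661 (without untreated replicate 2) and 1938 (without treated replicate 1).

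**Figure D1:**
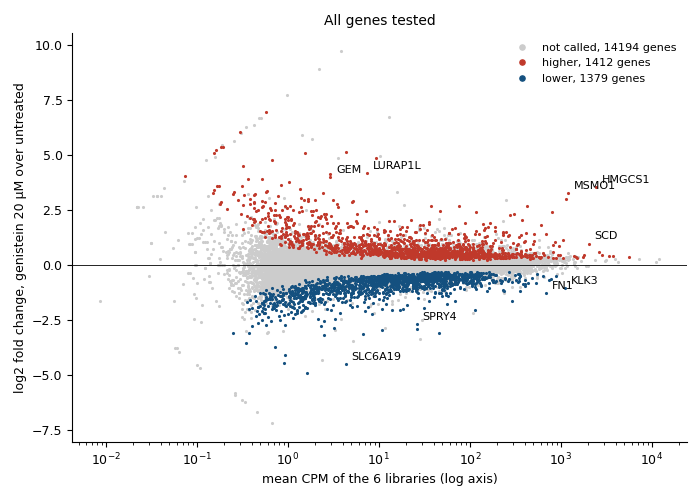
Each point is 1 of the 16985 genes tested, with the mean CPM of the 6 libraries on a log x axis and the log2 fold change of genistein 20 µM over untreated on the y axis; red genes were called higher (1412) and blue genes lower (1379). The labelled sterol genes HMGCS1 and MSMO1 lie at the upper right, far from the band of other abundant genes, and SLC6A19 lies lowest of the labelled genes.

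The list with the highest share of called genes held the enzymes that make cholesterol, and they were higher. Of 21 enzymes of the mevalonate and sterol pathway, all tested, 19 rose and none fell, against 8.31% of all genes higher. Their median log2 fold change was 1.66, beside 0.05 for all genes. The count was 17 to 19 with any single library left out. Summed over the list, the level was 2872, 3077 and 3146 CPM in the untreated libraries and 15040, 16980 and 13090 CPM in the treated ones.

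HMG-CoA, from which mevalonate is made, comes from HMGCS1 (chr5:43287470-43313512, GRCh38, as are all gene positions here). HMGCS1 stood at 154, 486 and 494 CPM in untreated cells and 5095, 6685 and 1642 CPM after genistein. Treated replicate 3 lay well below treated replicates 1 and 2, and untreated replicate 1 below the other untreated libraries, yet the groups did not overlap. The fitted difference was 11.8-fold, log2 fold change 3.56 ± 0.68 SE, adjusted p = 0.00415, the widest error in the pathway. ACAT2, which joins acetyl-CoA units ahead of that step, was far tighter, at 140.5, 146 and 148 CPM against 615, 614 and 593 CPM (4.19-fold, log2 fold change 2.07 ± 0.09 SE, adjusted p = 1.12e-07).

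Mevalonate is then phosphorylated and decarboxylated to isopentenyl diphosphate. MVK, the first kinase, went from 29.2, 26.8 and 35.7 CPM to 90.3, 110.3 and 88 CPM (3.15-fold, log2 fold change 1.66 ± 0.14 SE, adjusted p = 1.48e-05). MVD, the decarboxylase, went from 36.3, 36 and 37.6 CPM to 204, 193 and 202 CPM (5.44-fold, log2 fold change 2.44 ± 0.13 SE, adjusted p = 3.85e-07). PMVK, the kinase between them, did not pass the test, at 67.5, 71.5 and 69.5 CPM against 89.5, 84.6 and 85.1 CPM (log2 fold change 0.31 ± 0.13 SE, adjusted p = 0.12), although its groups did not overlap. Of all genes tested, 21.9% were higher without overlap. PMVK was called higher with only the 6 libraries, without the baicalein 20 µM libraries and with trends with GC content and length removed (adjusted p from 0.026 to 0.0497). IDI1, which isomerizes the product, rose 3.56-fold (adjusted p = 0.00468).

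Farnesyl diphosphate is the branch point between sterols and other isoprenoids. FDPS, which makes it, was at 104, 120.4 and 112 CPM and then 764, 731 and 734 CPM. The 3 libraries of each group lay within a narrow range and far apart from the other group (6.61-fold, log2 fold change 2.73 ± 0.13 SE, adjusted p = 1.28e-07). FDFT1, which commits farnesyl diphosphate to squalene, rose from 247, 246 and 255 CPM to 1402, 1329 and 1279 CPM (5.37-fold, log2 fold change 2.42 ± 0.11 SE, adjusted p = 1.12e-07). GGPS1, on the branch to protein prenylation, did not pass, at 43.5, 63.9 and 36.9 CPM and 73.3, 113 and 56 CPM, with overlapping groups (log2 fold change 0.75 ± 0.36 SE, adjusted p = 0.188).

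The oxygen-dependent and ring-forming steps rose as well. SQLE, the squalene epoxidase, went from 103, 117 and 87.2 CPM to 468, 515 and 559.5 CPM (5.02-fold, log2 fold change 2.33 ± 0.19 SE, adjusted p = 7.98e-06), and LSS, which closes the rings to lanosterol, from 125, 122 and 117 CPM to 348, 339 and 346 CPM (2.84-fold, log2 fold change 1.5 ± 0.14 SE, adjusted p = 2.35e-05). MSMO1, a C4-methyl sterol oxidase, had the largest rise among the later enzymes, from 266, 205 and 211 CPM to 1726, 2245 and 2617 CPM (9.66-fold, log2 fold change 3.27 ± 0.25 SE, adjusted p = 5.95e-06).

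Later enzymes carry lanosterol towards cholesterol. CYP51A1, NSDHL, HSD17B7, EBP, SC5D and DHCR7 rose between 2.58-fold for DHCR7 and 3.83-fold for HSD17B7. TM7SF2, a sterol reductase, rose 1.41-fold (adjusted p = 0.00902), and its call was lost without untreated replicate 2 or treated replicate 1.

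**Figure D2:**
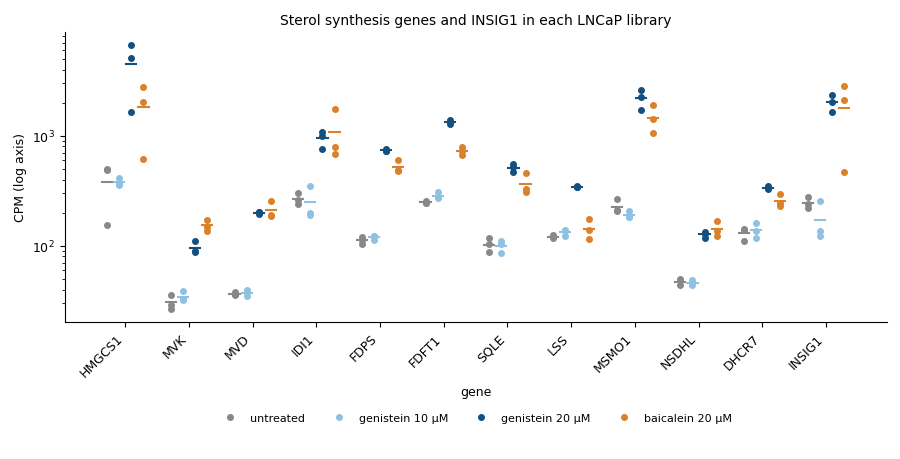
CPM on a log axis of 11 sterol synthesis genes, ordered along the pathway, and INSIG1; each point is 1 library and each bar the mean of 3, for untreated, genistein 10 µM, genistein 20 µM and baicalein 20 µM. The dark blue points of genistein 20 µM lie above the grey untreated points for every gene shown, while the light blue points of genistein 10 µM lie near the grey ones.

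The stretches just upstream of 5 of these genes are shown because the enzymes rose together and share a short motif there. The CCAAT box, which binds the factor NF-Y, a known partner of SREBP at sterol genes, was searched as CCAAT on both strands in the 250 bases upstream of RefSeq gene starts (GRCh38.p14). Of the 21 enzymes 16 had an entry, and 14 of them (87.5%) held the motif in at least 1 window, beside 41.5% of the 11325 tested genes with an entry and 43.8% of those that were higher. The letters TCACNCCAC, a core of the sterol regulatory element, were in 0 of the 16 and in 1.15% of the tested genes, which says only that these letters are not in these windows. Capitals mark CCAAT or its reverse complement, and each sequence is written 5′ to 3′ on the strand of its gene. In order, they lie at chr5:43313483-43313592 (minus strand, 180 to 71 bases before the start of HMGCS1), chr16:88663147-88663275 (minus strand, 184 to 56 bases before MVD), chr10:1048944-1049043 (minus strand, 157 to 58 bases before IDI1), chr1:155308665-155308844 (plus strand, 201 to 22 bases before FDPS) and chr4:165327459-165327664 (plus strand, 210 to 5 bases before MSMO1).
HMGCS1: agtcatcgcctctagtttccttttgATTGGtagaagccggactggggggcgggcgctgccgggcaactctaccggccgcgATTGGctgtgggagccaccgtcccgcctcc
MVD: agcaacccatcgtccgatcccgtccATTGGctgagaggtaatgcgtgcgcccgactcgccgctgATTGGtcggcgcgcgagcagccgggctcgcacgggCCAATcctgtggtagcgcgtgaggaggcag
IDI1: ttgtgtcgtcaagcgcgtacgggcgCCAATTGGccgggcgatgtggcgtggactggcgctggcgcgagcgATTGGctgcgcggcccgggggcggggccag
FDPS: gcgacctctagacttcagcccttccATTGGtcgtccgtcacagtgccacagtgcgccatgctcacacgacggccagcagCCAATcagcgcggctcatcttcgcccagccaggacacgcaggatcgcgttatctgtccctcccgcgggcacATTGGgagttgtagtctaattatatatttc
MSMO1: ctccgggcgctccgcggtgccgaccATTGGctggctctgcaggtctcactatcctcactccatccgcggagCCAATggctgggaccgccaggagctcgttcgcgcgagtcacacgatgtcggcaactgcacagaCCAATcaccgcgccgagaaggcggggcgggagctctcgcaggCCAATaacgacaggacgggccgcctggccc
There are 2 matches in the HMGCS1 stretch, 3 each in those of MVD, IDI1 and FDPS, and 4 in that of MSMO1. The 2 matches that overlap in IDI1 are read on opposite strands as 1 run of capitals.

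Of genes that sense and move sterols, 20 were listed. Of 19 tested, 5 rose and 1 fell, beside 8.31% of all genes higher and 8.12% lower. Their median log2 fold change was 0.05. INSIG1, the retention protein of SCAP and itself a sterol-responsive gene, rose from 219.8, 238 and 278 CPM to 1639, 2042 and 2361 CPM (8.20-fold, log2 fold change 3.04 ± 0.52 SE, adjusted p = 0.00228). LPIN1, a phosphatidate phosphatase, rose from 91.1, 85.2 and 84.4 CPM to 263, 299 and 312 CPM (3.35-fold, log2 fold change 1.74 ± 0.14 SE, adjusted p = 9.4e-06). INSIG2, the paralogue of INSIG1, was 1.61-fold higher (adjusted p = 0.00263), a call lost once trends with GC content and length were removed. SREBF2, the gene of SREBP-2, was at 305, 324 and 328 CPM and 454, 419 and 421 CPM (1.35-fold, log2 fold change 0.43 ± 0.13 SE, adjusted p = 0.0342), and its call was lost with any single library left out. It was also lost with other scalings, with no filter on low counts, with a replicate block and with mitochondrially encoded genes left out. Over these fits the adjusted p was up to 0.154. SCAP was 1.32-fold lower (adjusted p = 0.0412), a call lost without any 1 library other than treated replicate 1. SREBF1, the gene of SREBP-1, was at 125, 139 and 143 CPM against 115, 112 and 112 CPM, lower without passing the test (log2 fold change -0.27 ± 0.11 SE, adjusted p = 0.108). The count of genes that rose here fell to 3 without untreated replicate 1, 2 or 3 or treated replicate 2 or 3.

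Fatty acid synthesis rose in part. Of 21 genes, all tested, 12 rose and none fell, with a median log2 fold change of 0.55. ELOVL6, which extends palmitate, rose most, from 21.6, 21.6 and 18.4 CPM to 128, 130.0 and 139.7 CPM (6.45-fold, log2 fold change 2.69 ± 0.13 SE, adjusted p = 1.28e-07). ACSS2, which makes acetyl-CoA from acetate, went from 68.2, 70.4 and 70.3 CPM to 292, 252 and 256 CPM (3.83-fold, log2 fold change 1.94 ± 0.14 SE, adjusted p = 2.93e-06).

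The main synthesis enzymes rose by less than 2-fold. ACLY, which makes cytosolic acetyl-CoA from citrate, was 1.68-fold higher (adjusted p = 0.000495), and FASN, the fatty acid synthase, went from 633, 697 and 699 CPM to 1324, 1189 and 1252 CPM (1.86-fold, log2 fold change 0.89 ± 0.14 SE, adjusted p = 0.00136). ACACA, the acetyl-CoA carboxylase between them, did not pass, at 247, 304 and 261 CPM and 328, 304 and 279 CPM with overlapping groups (log2 fold change 0.16 ± 0.14 SE, adjusted p = 0.454). Among desaturases, SCD rose from 1273, 1423 and 1395 CPM to 2841, 2675 and 2639 CPM (1.99-fold, log2 fold change 0.99 ± 0.10 SE, adjusted p = 6.63e-05), FADS1 by 2.47-fold and FADS2 by 1.97-fold. Of 18 genes of fatty acid oxidation, 1 rose and 1 fell, where 16.4% of all genes were called. The rise was PPARGC1A, a coactivator, whose call was lost with any single library left out, and the fall CPT1B, a carnitine palmitoyltransferase, whose call was lost without untreated replicate 2 or treated replicate 3.

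Androgen-induced genes fell as a group. Of 23 such genes tested of 24 listed, 14 fell and none rose, against 8.12% of all genes lower, and their median log2 fold change was -0.78. The count was 11 to 13 with any single library left out. Because HERC3 stands in the table under more than 1 identifier, 24 entries were tested for the 23 symbols.

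KLK3 went from 1376, 1486 and 1628 CPM to 757, 721 and 723 CPM (2.04-fold, log2 fold change -1.03 ± 0.20 SE, adjusted p = 0.00468), and KLK2, a neighbouring kallikrein protease, from 64.9, 68.7 and 71 CPM to 26.7, 29.5 and 29 CPM (2.40-fold, log2 fold change -1.26 ± 0.12 SE, adjusted p = 3.91e-05). The 3 treated libraries of each gene were close together and clear of the controls. KLK2, KLK3 and KLK4 are related genes on chromosome 19, and how reads shared between such copies were counted is not given in the sources used here.

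TMPRSS2, the transmembrane protease whose promoter drives ERG fusions in other prostate tumours, fell from 304, 332 and 335 CPM to 155, 146 and 138 CPM (2.22-fold, log2 fold change -1.15 ± 0.12 SE, adjusted p = 4.91e-05). SLC45A3, a prostate membrane transporter, was 2.25-fold lower (adjusted p = 0.000134), and TRPM8, a cold-sensing cation channel, 2.78-fold lower (adjusted p = 0.00129). FKBP5, a co-chaperone of steroid receptors, went from 118, 115 and 116 CPM to 64, 70.3 and 67.6 CPM (1.73-fold, log2 fold change -0.79 ± 0.10 SE, adjusted p = 0.000292), and ACP3, prostatic acid phosphatase, from 139.8, 159 and 149.6 CPM to 77.8, 79.2 and 70.1 CPM (1.98-fold, log2 fold change -0.98 ± 0.10 SE, adjusted p = 5.84e-05). Of genes in the list that did not pass, CAMKK2 was at -0.34 and PMEPA1 at -0.26 on the log2 scale.

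Coregulators were read as well, and 4 that fell are named here: GRHL2, a luminal transcription factor (-0.68 ± 0.09 SE on the log2 scale), the acetyltransferase EP300 (-0.69 ± 0.14 SE), its paralogue CREBBP (-0.43 ± 0.10 SE) and the homeobox factor HOXB13 (-0.46 ± 0.13 SE). The CREBBP call was lost once trends with GC content and length were removed, with an adjusted p of 0.309. HOXB13 passed with all libraries (adjusted p = 0.0298) and was lost without any 1 library other than treated replicate 1.

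The oestrogen list held 15 genes, of which 10 were tested, with 4 lower and 1 higher. Over all genes, 8.12% were lower and 8.31% higher. GREB1, a coactivator gene induced by oestrogen in breast cells and by androgen in prostate cells, went from 54.4, 51.8 and 53.8 CPM to 15.5, 16.4 and 19.7 CPM (3.09-fold, log2 fold change -1.63 ± 0.14 SE, adjusted p = 1.04e-05). GPER1, a membrane oestrogen receptor, went from 20.9, 19.9 and 15.2 CPM to 5.99, 4.62 and 5.93 CPM (3.39-fold, log2 fold change -1.76 ± 0.20 SE, adjusted p = 0.000132), and CA12, a carbonic anhydrase, was 1.61-fold lower (adjusted p = 0.0123). The fourth was CCND1, described with the cell cycle. The gene that rose was XBP1, described with the chaperones, whose call was lost with any single library left out.

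**Figure D3:**
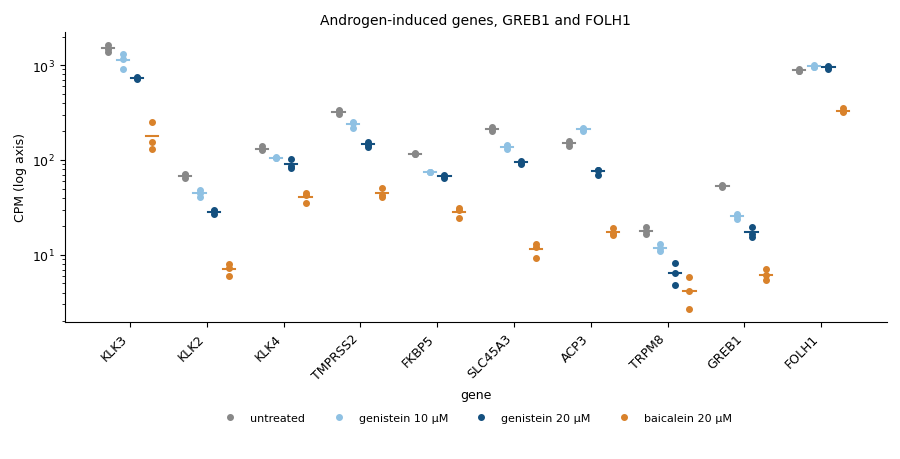
CPM on a log axis of 8 androgen-induced genes, GREB1 and FOLH1; each point is 1 library and each bar the mean of 3. Genistein 20 µM lies below untreated for every gene but FOLH1, and the mean with baicalein 20 µM is lower still for every gene shown, with overlapping libraries for TRPM8.

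FOLH1, the gene of PSMA, did not pass the test in either direction. It stood at 859.5, 908 and 870.4 CPM in untreated cells and 918, 984 and 956 CPM after genistein, so that every treated library lay above every control by a small margin. The same held for 21.9% of all genes tested. The log2 fold change of FOLH1 was 0.12 ± 0.08 SE (95% interval -0.06 to 0.29) (adjusted p = 0.366). The interval does not reach the change of KLK3 (-1.03). Over the main and alternative fits, the log2 fold change of FOLH1 ran from -0.04 to 0.12. FOLH1B, a near-identical copy on the same chromosome, is listed under more than 1 identifier, and reads of the copies may have been split. None of the 5 tested genes of this family passed the test, where 16.4% of all genes did. With trends with GC content and length removed, NAALAD2 was called lower (adjusted p = 0.0071) and NAALADL2 higher (adjusted p = 0.0248).

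Luminal markers did not all move the same way. Of 10, 6 fell and 2 rose. KRT8 and KRT18, the paired keratins of simple epithelium, were the ones that rose, from 169, 184 and 215 CPM to 296, 294 and 243 CPM and from 142, 142 and 150.5 CPM to 196, 187 and 198 CPM (adjusted p = 0.0208 and 0.0129). Both calls were lost with upper-quartile scaling and without untreated replicate 2 or treated replicate 1. KRT8 also lost it without untreated replicate 1 or treated replicate 2.

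Amino acid stress genes rose in part. Of 28 targets of ATF4, the factor translated when eIF2α is phosphorylated, 12 rose and none fell, with a median log2 fold change of 0.46. The count was 8 without treated replicate 1 and 9 or 10 without any other library. DDIT3, which encodes the stress factor CHOP, rose from 69.8, 75.6 and 68.5 CPM to 242, 209 and 202 CPM (3.05-fold, log2 fold change 1.61 ± 0.14 SE, adjusted p = 1.57e-05). TRIB3, a pseudokinase induced by ATF4 and CHOP, rose from 203, 226 and 232 CPM to 649, 581 and 608 CPM (2.78-fold, log2 fold change 1.48 ± 0.14 SE, adjusted p = 3.09e-05).

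CEBPB, a bZIP partner of ATF4, rose 2.22-fold (adjusted p = 0.00018), PPP1R15A, which recruits the phosphatase of eIF2α, 2.72-fold (adjusted p = 0.00325), and SESN2, a leucine sensor that restrains mTORC1, 1.67-fold (adjusted p = 0.00395). ATF4 itself rose 1.56-fold (adjusted p = 0.00445). Genes of amino acid supply and glutathione turnover in the list did not all pass. ASNS, asparagine synthetase, was at 0.24 and CHAC1, a glutathione-degrading enzyme, at 0.47 on the log2 scale, and neither passed (adjusted p = 0.406 and 0.101). The letters TGATGNAAN, a form of the C/EBP-ATF element, were found upstream of 5 of the 22 list genes with an entry (22.7%) and of 2.26% of the tested genes. Those 5 were ASNS, CHAC1, ATF3, CEBPG and SLC1A5, and none of them was called.

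Of 23 genes of the endoplasmic reticulum unfolded protein response, 3 were higher and none lower, beside 8.31% of all genes. ATF6, the transmembrane sensor, rose 1.5-fold (adjusted p = 0.00281). HSPA5, the chaperone BiP, rose 1.37-fold (adjusted p = 0.0285) and XBP1 1.29-fold (adjusted p = 0.0361). Both of these calls were lost with any single library left out, which left 1 gene of the list. Of 17 heat shock genes, 3 rose and none fell, beside 8.31% of all genes higher, and 1 was left without untreated replicate 3.

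Of 23 targets of NRF2, the factor that answers oxidants and electrophiles, 7 rose and 1 fell. Over all genes, 8.31% were higher and 8.12% lower. HMOX1, haem oxygenase, went from 18.8, 23.2 and 22.9 CPM to 53.1, 45.2 and 47.2 CPM (2.24-fold, log2 fold change 1.16 ± 0.15 SE, adjusted p = 0.000349). PGD, an NADPH-producing enzyme of the pentose phosphate pathway, rose 2.13-fold (adjusted p = 0.000155), and ME1, malic enzyme, 1.90-fold (adjusted p = 0.00888). FTH1, the heavy chain of ferritin, rose from 1945, 2079 and 2252 CPM to 3413, 3101 and 3137 CPM (1.54-fold, log2 fold change 0.62 ± 0.12 SE, adjusted p = 0.00498). ABCC1, a glutathione-conjugate exporter, fell from 148, 161 and 165 CPM to 81.3, 74.9 and 70.8 CPM (2.09-fold, log2 fold change -1.06 ± 0.12 SE, adjusted p = 0.000107). The count of genes that rose was 4 without untreated replicate 2 and 5 or 6 without any other library. The letters TGACNNNGC, a core of the antioxidant response element, were upstream of 5 of 17 list genes with an entry (29.4%), PGD and ME1 among them, and of 16% of tested genes.

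Metallothioneins, small cysteine-rich proteins that bind zinc and copper, rose. Of 8 genes tested in the metallothionein and zinc transport list, 4 rose and none fell, with all libraries and with any 1 of the 6 left out, and all 4 were metallothioneins. MT2A was at 192, 204 and 210.5 CPM and then 546, 515 and 503 CPM (2.58-fold, log2 fold change 1.37 ± 0.12 SE, adjusted p = 1.52e-05), and MT1X at 57.9, 58.2 and 59.3 CPM and then 179, 179 and 165 CPM (2.98-fold, log2 fold change 1.58 ± 0.15 SE, adjusted p = 2.35e-05). MT1F rose 2.43-fold and MT1G 1.91-fold. The zinc exporter SLC30A1, another target of the metal-sensing factor MTF1, did not pass, at 111, 69.2 and 77.7 CPM and 74.4, 112 and 146 CPM with overlapping groups. The metallothionein genes lie side by side on chromosome 16 and are alike in sequence, so counts may have been shared between copies.

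The upstream stretches of MT2A and MT1X are shown because these genes hold repeated copies of the core of the metal response element. The letters TGCNCNC were searched on both strands in the same 250 bases. Of the 7 list genes with an entry 5 held at least 1 match (71.4%), as did 62.9% of tested genes, so that 1 match is common. At least 4 matches were found in 3 of the 7 and in 2.72% of tested genes. Capitals mark the matches, 4 for MT1X (chr16:56682295-56682448, plus strand, 175 to 22 bases before the start) and 7 for MT2A (chr16:56608334-56608583, plus strand, 250 to 1 bases before the start), on GRCh38.p14 from RefSeq.
MT1X: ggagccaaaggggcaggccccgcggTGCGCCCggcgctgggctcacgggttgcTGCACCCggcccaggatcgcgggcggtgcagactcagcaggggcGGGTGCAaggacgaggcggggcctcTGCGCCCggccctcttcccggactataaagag
MT2A: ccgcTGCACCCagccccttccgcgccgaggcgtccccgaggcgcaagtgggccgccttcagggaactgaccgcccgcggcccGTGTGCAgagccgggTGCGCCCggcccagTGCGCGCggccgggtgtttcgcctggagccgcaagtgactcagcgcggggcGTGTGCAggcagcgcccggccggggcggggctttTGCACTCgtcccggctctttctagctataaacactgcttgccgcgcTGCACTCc

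Of 17 genes of the BCL2 family, which sets the threshold of the mitochondrial route to apoptosis, 2 rose and 1 fell. That is near the 16.4% of all genes called. HRK and BBC3, both BH3-only promoters of cell death, rose. HRK went from 4.62, 5.68 and 5.63 CPM to 15.6, 13.1 and 14.4 CPM (2.7-fold, log2 fold change 1.43 ± 0.17 SE, adjusted p = 0.000172) and BBC3, which encodes PUMA, from 4.72, 4.16 and 4.08 CPM to 10.6, 10.5 and 12.4 CPM (2.59-fold, log2 fold change 1.37 ± 0.18 SE, adjusted p = 0.000353). BMF, another BH3-only gene, fell 1.57-fold (adjusted p = 0.0044). BAX did not pass (adjusted p = 0.0512), but was called higher with limma-voom, with only the 6 libraries, without the baicalein 20 µM libraries and with trends with GC content and length removed (adjusted p from 0.00267 to 0.0477). MCL1 ranged from 140.6 to 410.6 CPM within the treated group.

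Of 25 targets of p53, 3 were higher and 1 lower, near the 16.4% of all genes called. BBC3 was called with any single library left out. CDKN1A, the cell cycle inhibitor p21, showed 159.9, 336 and 349.7 CPM after genistein against 156, 165 and 171 CPM in controls, so treated replicate 1 lay within the untreated range. Its call (log2 fold change 0.78 ± 0.24 SE, adjusted p = 0.0392) was lost without any 1 library other than treated replicate 1. The call of XPC, a damage sensor that rose, was lost with any single library left out, and that of PLK2, a stress-induced kinase that fell, without any 1 library other than treated replicate 1. MDM2, GADD45A and SESN1 did not pass, with adjusted p = 0.603, 0.505 and 0.856.

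Genes that report growth factor signalling moved in different directions. SPRY4, a feedback inhibitor of receptor tyrosine kinase signalling (chr5:142310427-142326455), fell from 40.9, 44 and 49.8 CPM to 7.98, 7.61 and 5.66 CPM (6.34-fold, log2 fold change -2.67 ± 0.14 SE, adjusted p = 2.71e-07). DUSP5, a nuclear ERK phosphatase, rose from 0.987, 1.22 and 0.747 CPM to 4.6, 3.94 and 4.15 CPM (4.26-fold, log2 fold change 2.09 ± 0.25 SE, adjusted p = 0.000149). DUSP10 rose 1.68-fold and DUSP2 fell 1.78-fold (adjusted p = 0.00703 and 0.00282). In all, 2 of 18 feedback genes rose and 3 fell, the same counts with any single library left out. Over all genes, 8.31% were higher and 8.12% lower.

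Of 27 receptor and non-receptor tyrosine kinases tested, 5 fell and 3 rose, beside 8.12% of all genes lower and 8.31% higher. IGF1R, the receptor of insulin-like growth factors (chr15:98648539-98964530), was at 78.1, 81 and 99.5 CPM and then 23.2, 25.9 and 27.2 CPM (3.39-fold, log2 fold change -1.76 ± 0.14 SE, adjusted p = 6.21e-06). TYRO3, a TAM family receptor, fell 1.48-fold (adjusted p = 0.00433). FGFR2 and the SRC family kinase FYN rose at low levels, FGFR2 from 0.935, 1.65 and 1.84 CPM to 3.82, 4.21 and 4.35 CPM and FYN from 0.467, 0.244 and 0.632 CPM to 1.48, 1.63 and 1.51 CPM (adjusted p = 0.00489 and 0.00835). The kinase that rose besides them, EPHA1, kept its call only without treated replicate 3 among the 6 leave-one-out fits. The kinases that fell numbered 2 without untreated replicate 3 or treated replicate 2 or 3, and 3 without untreated replicate 1, while IGF1R was called with any single library left out.

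Immediate early genes, which respond to stimuli within minutes and without new protein, were higher in 8 of 23 cases and lower in none. JUND rose from 52.9, 52.5 and 51.7 CPM to 132, 125 and 126 CPM (2.44-fold, log2 fold change 1.29 ± 0.13 SE, adjusted p = 5.67e-05). EGR1, a zinc finger factor, went from 1.35, 1.96 and 1.32 CPM to 4.68, 5.03 and 5.47 CPM (3.29-fold, log2 fold change 1.72 ± 0.16 SE, adjusted p = 2.35e-05) and FOS from 7.32, 5.38 and 4.77 CPM to 21.2, 21.9 and 27.7 CPM (4.04-fold, log2 fold change 2.02 ± 0.23 SE, adjusted p = 0.000132). GEM, a small GTPase, rose from under 1 CPM in each control to 3.73, 6.25 and 6.65 CPM (16-fold, log2 fold change 4.0 ± 0.66 SE, adjusted p = 0.0016).

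Genes of DNA replication fell. Of 40 genes for the G1/S transition and replication, 20 fell and none rose, and the median log2 fold change was -0.49. The count fell to 11 without treated replicate 2 and to 13 without treated replicate 3, and was 16 to 18 otherwise. CCND1, cyclin D1, went from 229, 215 and 219 CPM to 139, 135 and 146 CPM (1.58-fold, log2 fold change -0.66 ± 0.12 SE, adjusted p = 0.00302), and E2F1, the factor released at the restriction point, from 20.1, 21.9 and 23.1 CPM to 13.4, 13.1 and 11.7 CPM (1.70-fold, log2 fold change -0.77 ± 0.14 SE, adjusted p = 0.003).

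UHRF1, which brings the DNA methyltransferase to newly copied DNA, fell most in this list, from 18.9, 16.3 and 16.5 CPM to 3.30, 6.11 and 3.82 CPM (3.89-fold, log2 fold change -1.96 ± 0.23 SE, adjusted p = 0.000155). Its partner DNMT1 was 1.42-fold lower (adjusted p = 0.0104). MCM2, MCM5 and MCM7, subunits of the replicative helicase, were 1.78-, 1.53- and 1.44-fold lower, and the call of MCM7 was lost without treated replicate 2 or 3. TK1, thymidine kinase, went from 33.5, 38.1 and 31.2 CPM to 21.9, 20.9 and 21.3 CPM (1.6-fold, log2 fold change -0.68 ± 0.12 SE, adjusted p = 0.00211), and RRM2, a subunit of ribonucleotide reductase, was 2.71-fold lower (adjusted p = 0.00845).

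Of 36 mitotic genes 4 were lower and none higher, beside 8.12% of all genes lower, with a median of -0.30. Of these BUB1B, a spindle checkpoint kinase, went from 17, 17.5 and 18.3 CPM to 11.2, 12 and 10.1 CPM (1.58-fold, log2 fold change -0.66 ± 0.15 SE, adjusted p = 0.00933). CDC20, PLK1 and MKI67 were the others, and each lost its call without untreated replicate 3 or treated replicate 2. The count was 1 without either of those libraries and 2 without untreated replicate 2 or treated replicate 3. Whether the mitotic list differs from the replication list was not tested.

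Among 32 genes of homologous recombination and the Fanconi pathway, 9 fell and 2 rose, with 5 to 7 falls when any single library was left out (5 without untreated replicate 3, and 6 without untreated replicate 1 or any treated library). FANCA, of the Fanconi core complex, went from 14.8, 17.5 and 18.6 CPM to 7.98, 7 and 6.19 CPM (2.40-fold, log2 fold change -1.26 ± 0.14 SE, adjusted p = 8.21e-05), and FANCI, which is monoubiquitinated at stalled forks, from 37.6, 46.3 and 44.8 CPM to 25.4, 27.4 and 26.2 CPM (1.63-fold, log2 fold change -0.70 ± 0.10 SE, adjusted p = 0.000402). XRCC3, a recombination factor, was 1.58-fold lower (adjusted p = 0.00475). RAD51B, another recombination factor, was 1.46-fold higher (adjusted p = 0.0417), a call lost without any 1 library other than treated replicate 3. At most 1 gene of the list remained higher with any single library left out.

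Other repair and checkpoint genes were mixed, 6 of 42 lower and 4 higher, beside 8.12% of all genes lower and 8.31% higher. PARP1, the sensor of strand breaks, went from 322, 393 and 369 CPM to 226, 211 and 214 CPM (1.66-fold, log2 fold change -0.73 ± 0.14 SE, adjusted p = 0.00345). POLQ, the polymerase of theta-mediated end joining, was 1.82-fold lower (adjusted p = 0.00455). UVSSA, which acts in transcription-coupled repair, showed the largest fall, from 92.4, 73 and 81.2 CPM to 10.3, 10.4 and 8.89 CPM (8.33-fold, log2 fold change -3.06 ± 0.76 SE, adjusted p = 0.0167), and lost its call without any 1 of the treated libraries. The falls numbered 2 without treated replicate 2 or 3. The rises numbered 0 without treated replicate 1, 1 without untreated replicate 2 or 3, and 2 without any other library.

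Of 9 genes for DNA topoisomerases and the repair of their adducts, none passed, and 5 were negative. TOP2A was at 58.8, 50.4 and 50.4 CPM and 31.8, 43.2 and 42.8 CPM (log2 fold change -0.44 ± 0.32 SE, adjusted p = 0.39; 95% interval -1.12 to 0.25) and TOP2B at 241, 196 and 195 CPM and 148, 173 and 195 CPM (log2 fold change -0.29 ± 0.20 SE, adjusted p = 0.366; 95% interval -0.73 to 0.15). With trends with GC content and length removed both were called lower (adjusted p = 0.0269 for TOP2A and 0.00437 for TOP2B), and TOP3A was called lower without the baicalein 20 µM libraries in the fit (adjusted p = 0.0337).

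The aryl hydrocarbon receptor list held 7 tested genes with 2 higher and 1 lower, beside 8.31% and 8.12% of all genes. CYP1A1, the usual reporter of this receptor and a metabolizer of flavonoids, fell from 2.91, 4.22 and 5 CPM to 0.868, 0.543 and 0.395 CPM (6.78-fold, log2 fold change -2.76 ± 0.32 SE, adjusted p = 0.000142). NQO1 and TIPARP rose 1.31- and 1.56-fold (adjusted p = 0.0133 and 0.0352), calls lost without untreated replicate 2 or 3 or treated replicate 3, among others. AHR itself did not pass (log2 fold change 0.16 ± 0.44 SE, adjusted p = 0.847).

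Autophagy genes included 6 rises and 2 falls of 30, beside 8.31% of all genes higher and 8.12% lower. WIPI1, which marks forming autophagosomes, went from 14.3, 15.6 and 14.9 CPM to 34, 31.7 and 32.5 CPM (2.19-fold, log2 fold change 1.13 ± 0.10 SE, adjusted p = 2.06e-05). SQSTM1, the cargo receptor p62, went from 631, 663 and 653 CPM to 1555, 1409 and 1433 CPM (2.26-fold, log2 fold change 1.18 ± 0.22 SE, adjusted p = 0.00321), and MAP1LC3B, the membrane-bound LC3 protein, from 86.3, 96 and 93.3 CPM to 205, 196 and 199 CPM (2.18-fold, log2 fold change 1.12 ± 0.18 SE, adjusted p = 0.00131). GAA, a lysosomal glucosidase, fell 1.6-fold (adjusted p = 0.00371).

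The list of ribosome biogenesis and its regulators gave 7 falls and 2 rises of 30, beside 8.12% and 8.31% of all genes. POLR1A, the largest subunit of RNA polymerase I, went from 80.7, 86.6 and 89.7 CPM to 50.8, 50.3 and 50 CPM (1.70-fold, log2 fold change -0.77 ± 0.10 SE, adjusted p = 0.000359), and BYSL, an 18S maturation factor, was 1.73-fold lower (adjusted p = 0.00263). GNL3, a nucleolar GTPase, rose 1.41-fold (adjusted p = 0.00183), a call lost once GC and length trends were removed (adjusted p = 0.242). The falls numbered 4 without untreated replicate 3 or treated replicate 2 or 3, and the rises 1 without any 1 library other than untreated replicate 1.

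Beside the lists that follow, 8.31% of all genes tested were higher and 8.12% lower. Glycolysis and hypoxia genes gave 1 rise of 26, VEGFA. Of 8 genes of cholesterol efflux, 1 rose and 1 fell, and of 18 nutrient transporters 3 fell and none rose. Splicing kinases and SR proteins gave 2 rises and 3 falls of 28, and all 5 calls were lost with several single libraries left out. Interferon-stimulated genes gave 2 rises and 1 fall of 18, where IRF1, an interferon-response factor, rose from 4.67, 3.67 and 3.56 CPM to 12.5, 9.04 and 10.6 CPM (2.69-fold, log2 fold change 1.43 ± 0.19 SE, adjusted p = 0.000359) and STAT2 fell 1.78-fold (adjusted p = 0.00039). The rises there numbered 1 with any single library left out.

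Of the 13 mitochondrially encoded mRNAs 5 rose and 1 fell. MT-ND6, the mRNA of the light strand, went from 100.5, 100.4 and 112 CPM to 63.7, 62.5 and 61.3 CPM (1.67-fold, log2 fold change -0.74 ± 0.15 SE, adjusted p = 0.00539). The rises were of 1.31- to 1.40-fold, numbered 0 without treated replicate 1 and 1 without untreated replicate 1, 2 or 3 or treated replicate 2, and overlapping mitochondrial transcripts cannot be told apart without strand. All 5 calls, of MT-CO2, MT-CYB, MT-ND2, MT-ND3 and MT-ND4, were also lost with upper-quartile factors and with trends with GC content and length removed. In the latter fit their log2 fold changes were 0.13, 0.16, 0.15, 0.10 and 0.10 in that order.

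**Figure D4:**
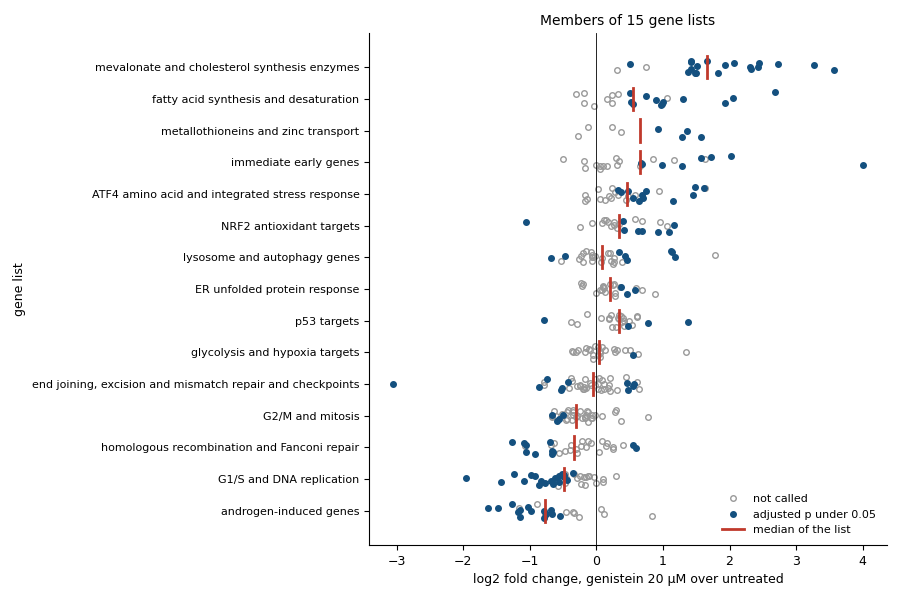
Log2 fold change of genistein 20 µM over untreated for the tested members of 15 gene lists; filled points passed an adjusted p of 0.05, open points did not, and the red bar is the list median. The sterol list lies to the right of 0 with a median of 1.66, and the replication and androgen lists lie to the left with medians of -0.49 and -0.78.

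Over all genes, the largest rise among protein-coding genes at 5 CPM or more with separate groups was LURAP1L (chr9:12775020-12823060), an adaptor linked to NF-κB activation. It went from 0.883, 0.795 and 0.575 CPM to 11.3, 15.3 and 15.5 CPM (18.5-fold, log2 fold change 4.21 ± 0.32 SE, adjusted p = 5.95e-06). KRT20, an epithelial keratin, went from 0.727, 0.489 and 0.919 CPM to 5.21, 5.91 and 5.73 CPM (7.78-fold, log2 fold change 2.96 ± 0.32 SE, adjusted p = 6.97e-05). GAB2, a docking protein of receptor kinases, went from 0.935, 0.978 and 0.689 CPM to 6.51, 6.11 and 5.60 CPM (6.93-fold, log2 fold change 2.79 ± 0.24 SE, adjusted p = 1.33e-05), and ABCB5, a membrane transporter, from 1.25, 1.04 and 1.26 CPM to 8.59, 8.49 and 9.61 CPM (7.46-fold, log2 fold change 2.90 ± 0.26 SE, adjusted p = 1.7e-05). Each of these 4 genes rose from an untreated mean of 0.712 to 1.18 CPM.

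The largest fall by the same rule was SLC6A19 (chr5:1201595-1225111), a transporter of neutral amino acids, from 7.48, 9.17 and 8.21 CPM to 0.434, 0.340 and 0.329 CPM (22.3-fold, log2 fold change -4.48 ± 0.37 SE, adjusted p = 9.22e-06). NNMT, which methylates nicotinamide, went from 5.71, 6.36 and 6.49 CPM to 1.48, 1.49 and 1.12 CPM (4.53-fold, log2 fold change -2.18 ± 0.21 SE, adjusted p = 3.14e-05), and CHRNA2, a nicotinic receptor subunit, from 12.3, 11.4 and 10.5 CPM to 2.34, 2.51 and 3.29 CPM (4.17-fold, log2 fold change -2.06 ± 0.30 SE, adjusted p = 0.000647). Other genes of this rank, ZNF737, ZNF778, MALT1, ADORA2A and STX16-NPEPL1, varied widely between untreated libraries, and each lost its call without any 1 treated library except ADORA2A, which kept it without treated replicate 1. MALT1 was at 246, 224 and 82.4 CPM in controls, and ZNF778 at 29.1, 8.44 and 20.4 CPM.

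By loss in CPM, which is not per length, the fall in FN1, the matrix protein fibronectin, was among the largest. It went from 1012, 957 and 945 CPM to 381, 416 and 424 CPM (2.39-fold, log2 fold change -1.25 ± 0.08 SE, adjusted p = 1.77e-06). ENDOD1, ST3GAL1, a sialyltransferase, and PRUNE2 also lost many counts, falling 1.93-, 1.54- and 1.56-fold.

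Of 2090 long noncoding genes tested, 119 were higher and 201 lower, which is 5.69 and 9.62%, beside 9.16 and 7.8% of 12835 protein-coding genes. GAS6-AS1 went from 13.2, 15.4 and 13.7 CPM to 81.3, 78.9 and 76.1 CPM (5.58-fold, log2 fold change 2.48 ± 0.16 SE, adjusted p = 1.46e-06), and MCPH1-AS1 from 10.3, 10.9 and 8.56 CPM to 64.8, 60.7 and 68.6 CPM (6.51-fold, log2 fold change 2.7 ± 0.17 SE, adjusted p = 1.46e-06). LINC02593 fell from 29.8, 30.0 and 29.3 CPM to 8.33, 6.59 and 7.38 CPM (4-fold, log2 fold change -2.0 ± 0.11 SE, adjusted p = 4.49e-07), and FAM13A-AS1 from 50.4, 55 and 45.4 CPM to 10.8, 11.7 and 16.8 CPM (3.83-fold, log2 fold change -1.94 ± 0.20 SE, adjusted p = 5.67e-05). The library kit does not mark strand, so reads of an antisense gene and of its partner cannot be told apart.

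Fewer genes were called at the lower dose. Genistein at 10 µM against the same untreated libraries gave 19 called genes, 0.112% of those tested, 6 higher (0.0353%) and 13 lower (0.0765%). Because both doses were set against the same controls, the direct comparison of 20 with 10 µM is given instead: 950 genes were higher (5.59%) and 1296 lower (7.63%) at 20 µM. Of the 21 sterol enzymes 17 were higher than at 10 µM and none lower. FDPS stood at 112, 123 and 122 CPM at 10 µM, against 764, 731 and 734 CPM at 20 µM (6.24-fold, log2 fold change 2.64 ± 0.13 SE, adjusted p = 1.75e-07), and MSMO1 at 207, 184 and 182 CPM (11.5-fold, log2 fold change 3.52 ± 0.25 SE, adjusted p = 4.39e-06). SPRY4 was at 41.5, 42.4 and 47.2 CPM at 10 µM, and IGF1R at 70.2, 56 and 65.4 CPM, both lower at 20 µM (log2 fold change -2.63 ± 0.14 SE, adjusted p = 3.24e-07 for SPRY4; log2 fold change -1.33 ± 0.14 SE, adjusted p = 6.3e-05 for IGF1R).

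Some genes went the other way. FOS was at 124, 109.8 and 108 CPM at 10 µM and 21.2, 21.9 and 27.7 CPM at 20 µM, so all libraries of the lower dose lay above those of the higher dose (log2 fold change -2.27 ± 0.23 SE, adjusted p = 5.53e-05). EGR1 was at 13.7, 11.9 and 13.3 CPM at 10 µM against 4.68, 5.03 and 5.47 CPM (log2 fold change -1.35 ± 0.14 SE, adjusted p = 8.78e-05), and FOSB at 5.44, 5.4 and 4.05 CPM against 1.30, 0.747 and 0.593 CPM (log2 fold change -2.52 ± 0.30 SE, adjusted p = 0.000201). From low to high the order was untreated, 20 µM and 10 µM for all 3 genes, with no overlap between neighbouring groups. The call of FOSB at 20 µM over untreated was lost without untreated replicate 1 or 3 or treated replicate 1.

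Of the 23 androgen-induced genes, 2 were lower and none higher at 10 µM than in untreated cells, and 8 were lower and none higher at 20 than at 10 µM. Over all genes, 0.0765% and 7.63% were lower in these comparisons. The median log2 fold change of the list was -0.43 at 10 µM over untreated and -0.35 at 20 over 10 µM. GREB1 stood at 54.4, 51.8 and 53.8 CPM untreated, 27.1, 25.4 and 24.1 CPM at 10 µM and 15.5, 16.4 and 19.7 CPM at 20 µM, and the step from 10 to 20 µM was log2 fold change -0.57 ± 0.13 SE, adjusted p = 0.0144. FKBP5 was at 73.8, 74 and 75.5 CPM at 10 µM, which did not differ beyond the test from 20 µM (log2 fold change -0.14 ± 0.10 SE, adjusted p = 0.37; 95% interval -0.37 to 0.07). KLK2 was at 45, 40.8 and 48.4 CPM at 10 µM, between the other groups, and the step to 20 µM was log2 fold change -0.65 ± 0.12 SE, adjusted p = 0.00445. ACP3 did not follow that order, at 139.8, 159 and 149.6 CPM untreated, 210.5, 201 and 218 CPM at 10 µM and 77.8, 79.2 and 70.1 CPM at 20 µM. Its libraries at 10 µM lay above all untreated ones without passing the test (log2 fold change 0.49 ± 0.10 SE, adjusted p = 0.147).

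Baicalein is a flavone, and genistein an isoflavone, so that the phenyl ring is joined at a different carbon of the core, and their hydroxyl groups are placed differently. At the matched dose of 20 µM and time of 24 h, 4316 genes were higher (25.4%) and 3962 lower (23.3%) with genistein than with baicalein, 48.7% in all, in 1 pairwise comparison. Against the untreated libraries 57.2% of genes were called with baicalein, in either direction. Mitochondrially encoded genes took 5.62 ± 0.62% of counts with genistein and 12.47 ± 2.0% with baicalein (mean ± SD, n = 3). The part of this shift in the differences below was not tested.

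The sterol enzymes rose with baicalein as well. Over the same untreated libraries, 18 of the 21 were higher with baicalein at 20 µM and 1 lower. Their median log2 fold change was 1.55, beside 1.66 with genistein. Compared directly, 11 of the 21 were higher with genistein than with baicalein and 2 lower. FDFT1 was at 671, 786 and 725 CPM with baicalein and 1.84-fold higher with genistein (log2 fold change 0.88 ± 0.10 SE, adjusted p = 2.07e-05), and LSS at 116, 176 and 138 CPM and 2.40-fold higher (log2 fold change 1.26 ± 0.14 SE, adjusted p = 1.09e-05). MVD did not differ beyond the test, at 186, 255 and 189 CPM with baicalein (log2 fold change -0.07 ± 0.13 SE, adjusted p = 0.662; 95% interval -0.35 to 0.20). MVK was lower with genistein than with baicalein (log2 fold change -0.67 ± 0.14 SE, adjusted p = 0.00156).

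Of 21 fatty acid genes, 17 were higher with genistein than with baicalein and 1 lower. SCD was at 930.1, 1204 and 1013 CPM with baicalein against 2841, 2675 and 2639 CPM with genistein (log2 fold change 1.37 ± 0.10 SE, adjusted p = 5.88e-07), and FASN at 485, 702 and 506 CPM (log2 fold change 1.15 ± 0.14 SE, adjusted p = 3.15e-05). ACLY was at 139, 159 and 140.3 CPM with baicalein, below the untreated libraries, while with genistein it lay above them (log2 fold change 1.97 ± 0.11 SE, adjusted p = 4.14e-08). Of the 23 androgen-induced genes 18 were higher with genistein than with baicalein and none lower. KLK3 was at 154, 248 and 131 CPM with baicalein (log2 fold change 2.04 ± 0.21 SE, adjusted p = 6.21e-06) and FOLH1 at 349, 317 and 326 CPM (log2 fold change 1.53 ± 0.08 SE, adjusted p = 3.56e-08). IGF1R did not differ beyond the test, at 24.2, 25 and 21.4 CPM (log2 fold change 0.11 ± 0.13 SE, adjusted p = 0.524; 95% interval -0.18 to 0.40).

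Lists of stress and damage genes had positive medians over untreated cells with both compounds, but the direct difference between the compounds varied by list. The median log2 fold change over the same untreated libraries was 0.65 with genistein and 2.97 with baicalein for immediate early genes. It was 0.335 and 1.52 for p53 targets, and 0.65 and 2.42 for the metallothionein list. With genistein 22 of 23 immediate early genes, 17 of 25 p53 targets and 6 of 8 metallothionein-list genes were lower than with baicalein, with 1 higher in each list. Of the ATF4 targets 13 were higher and 10 lower, of 23 NRF2 targets 8 and 5, and of 23 genes of the unfolded protein response 6 and 6. Over all genes tested, 25.4% were higher and 23.3% lower with genistein than with baicalein. CDKN1A was at 978, 1380.0 and 1087 CPM with baicalein (log2 fold change -2.03 ± 0.24 SE, adjusted p = 2.2e-05) and MT2A at 1019, 1332 and 1090.0 CPM (log2 fold change -1.14 ± 0.12 SE, adjusted p = 7.18e-06). Of the 40 replication genes 26 were higher with genistein and 1 lower.

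Most genes called with genistein at 20 µM had the same call with baicalein at 20 µM. These were 1065 of the 1412 higher and 1047 of the 1379 lower. Over all genes tested, baicalein gave 29.4% higher and 27.8% lower, and both comparisons share the untreated libraries. Genes with a symbol called in opposite directions at 20 µM, and different between the compounds, numbered 59 rising and 73 falling with genistein. They were chosen on these values, which are therefore a description. UGT2B15, which glucuronidates androgens, was at 59.7, 56.7 and 60.0 CPM untreated, 91.6, 108 and 101 CPM with genistein and 13.2, 13 and 12.3 CPM with baicalein. SLITRK6, a neuronal membrane protein, was at 17, 12 and 10.1 CPM, 28.1, 38.7 and 45 CPM and 5.02, 1.89 and 4.53 CPM in the same order. In the other direction, AMH, a hormone of the TGF-β family, was at 8.57, 9.05 and 8.04 CPM, 4.68, 4.28 and 3.23 CPM and 25.7, 30.4 and 29.7 CPM, and POLG2, the accessory subunit of the mitochondrial DNA polymerase, at 18.9, 16.9 and 17.2 CPM, 8.85, 10.8 and 8.89 CPM and 71.7, 42.9 and 64.3 CPM. UGT2B15 has near-identical relatives, with which counts may have been shared.

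**Figure D5:**
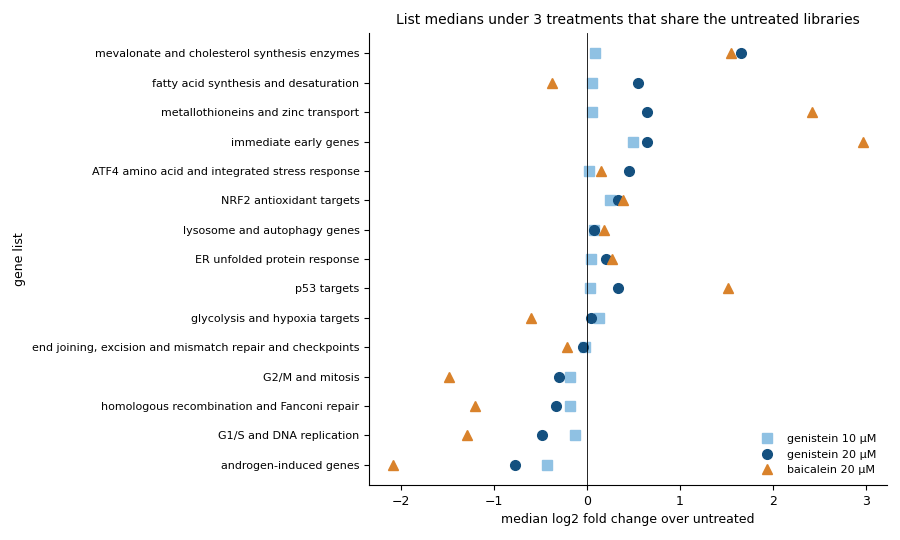
Median log2 fold change over untreated of the same 15 lists under genistein 10 µM (squares), genistein 20 µM (circles) and baicalein 20 µM (triangles); all 3 share the untreated libraries. The sterol list is near 0 at 10 µM, at 1.66 with genistein 20 µM and at 1.55 with baicalein 20 µM. The fatty acid list lies on opposite sides of 0 for genistein and baicalein at 20 µM.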

How the data were processed

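Poly(A) RNA of 18 libraries was sequenced from kits that do not mark strand. The deposited table gives raw counts per gene by the authors; the submitters' processing notes name fastp, STAR 2.7.6a, featureCounts 1.6.4, DESeq2 1.20.0 and GRCh38. Their settings, the annotation release and the handling of reads with several matches are not given in the sources used here. The deposited FPKM values (18 columns) and the authors' 13 comparison tables were not used.

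Counts were tested with edgeR 4.0.16 (R 4.3.3): TMM factors, edgeR's default filter by group, a quasi-likelihood F test in 1 fit of the 15 LNCaP libraries with robust dispersions, and Benjamini-Hochberg adjustment over 16985 genes, at 0.05. The SE is the absolute log2 fold change, taken before edgeR's shrinkage, divided by the square root of F. The fit was tested on simulated data. The 6 libraries held 11249593 to 18445711 counts.

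The members and gene lists were chosen with earlier results of these data known. Named genes are a fixed set of well-known genes, the 15 largest rises and falls at 5 CPM or more without overlap, the largest gains and losses in CPM, 5 long noncoding genes each way, the 6 smallest p in each list, every sterol enzyme, and the 8 largest opposite calls with baicalein each way. ACACA, ASNS, CAMKK2, CHAC1, DNMT1, EPHA1, FASN, FOSB, GADD45A, KRT10, KRT19, KRT75, KRT80, MCL1, BAX, MCM7, MDM2, PMEPA1, RAD51B, RRM2, SESN1 and TRPM8 were added after their values were seen. Some genes the rule takes are not reported here. Promoters are from RefSeq (GRCh38.p14). Alternatives were other scalings, DESeq2 1.42.0, limma 3.58.1 (voom), no filter, fewer libraries, a replicate block, GC and length trends removed, stricter thresholds, and each library left out.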

Additional observations from a re-analysis of the deposited data

How the results depend on the processing

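Of 2791 genes called with genistein at 20 µM, the count was 1661 to 1938 with any single library left out, with 701 to 884 higher and 811 to 1195 lower; each such fit shared 1608 to 1806 of the calls, and the arm left with fewer libraries is assumed to vary like the other groups. With an adjusted p under 0.01 the count was 1178 (558 higher, 620 lower), and 360 (196 higher, 164 lower) passed a test against a fold change of 1.5. Genes higher numbered 875 with upper-quartile factors, 39.2% of the calls against 50.6%, and 877 with no filter on low counts. Leaving out mitochondrially encoded genes gave 39% higher. With GC and length trends removed 2091 genes were lower, 7 of the calls had the opposite sign, and 3415 genes were called between 20 and 10 µM, 1558 of them higher. DESeq2 called 3264 genes and limma-voom 2974. Deviations of same-numbered libraries correlated at -0.2, -0.05 and -0.06, and those of differently numbered ones at -0.11 to 0.15. These values cannot settle whether the replicate numbers pair the libraries, since deviations within a group depend on one another. A replicate block gave 2193 calls, and UGT2B15 lost its call when the block was combined with removal of GC and length trends (adjusted p = 0.0602). The cause of these shifts was not tested beyond the construction of each alternative. Of 290 named genes, 177 kept their side of the threshold in every alternative other than the stricter thresholds, 79 lost the call in some, 34 gained it in some, and 0 reversed.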

Other observations

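Keratins, structural proteins of epithelial filaments, are a family chosen after its values were seen. Of 8 keratin genes tested 6 rose and 1 fell, KRT8 and KRT18 included, with a median log2 fold change of 0.66. KRT75 went from 2.45 to 9.20 CPM (means of 3 libraries, adjusted p = 4.73e-05 in edgeR's quasi-likelihood test). KRT10 went from 44.6 to 76.0 CPM (adjusted p = 0.00394 in the same test), and both genes were called with any single library left out. KRT80, higher by 1.37 on the log2 scale (adjusted p = 0.0323), lost the call without any 1 library other than replicate 3 of the treated group (adjusted p from 0.0816 to 0.114). KRT19 fell by 0.60 on the log2 scale (adjusted p = 0.0402) and lost the call without untreated replicate 2 or 3 or treated replicate 2 or 3 (adjusted p from 0.101 to 0.142).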
